A study of Homo sapiens with 6 samples.

Results

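The integrated stress response was followed here through 10 genes, the transcription factors DDIT3, ATF3, ATF4 and ATF5, the feedback regulators TRIB3 and PPP1R15A, and the effectors CHAC1, SESN2, ASNS and DDIT4. They were taken by exact match of the gene symbol from the table of 29845 genes, and all 10 were found, each once, and all 10 passed the filter on low counts. In this response, kinases that sense unfolded protein, missing amino acids, double-stranded RNA or heme shortage phosphorylate the translation factor eIF2, which lowers protein synthesis as a whole while favouring translation of the mRNA of ATF4. ATF4 then raises genes of amino acid supply together with DDIT3, ATF3 and the phosphatase subunit PPP1R15A, which reverses the phosphorylation of eIF2. Because ATF4 is governed largely at translation, its mRNA level need not follow its protein level, and protein was not measured in these libraries.

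A549 cells derive from a human lung carcinoma. The control cells received the empty vector pIRES-hrGFP-1a and the TFAM-OE cells the same vector carrying FLAG-tagged TFAM, a mitochondrial DNA-binding protein, with Lipofectamine, and polyadenylated RNA was collected 48 h later from 3 samples per group. The design was therefore transient expression from a plasmid, both groups had been exposed to plasmid DNA and lipid, and no untransfected sample is analysed here. Library totals were 32430766 (control replicate 1), 26650854 (control replicate 2), 37321956 (control replicate 3), 33579510 (TFAM-OE replicate 1), 36958682 (TFAM-OE replicate 2) and 28735164 reads (TFAM-OE replicate 3).

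The transfected gene was examined first. TFAM stood at 76.1, 70.2 and 72.7 CPM (a gene's count relative to the library's total after TMM scaling) in control replicates 1, 2 and 3 and at 71.9, 77.3 and 83.0 CPM in TFAM-OE replicates 1, 2 and 3. The groups overlapped, and the log2 fold change was 0.08 (standard error 0.096, adjusted p = 0.623 in edgeR's quasi-likelihood test), so the second group is called the libraries labelled TFAM-OE. Its 95% interval, from -0.13 to 0.30, holds no large rise, so this mRNA did not bear out the labels. For the overexpression the study points to a protein blot against the FLAG tag, which is not analysed here. The cell type was checked against marker genes. KRT7, a keratin of simple epithelia, was the most abundant of 7 epithelial markers at 1376 ± 59.0 FPKM in the control (SD, n = 3; FPKM are counts relative to depth and transcript length), and none of the 7 was called between the groups. EPCAM, CDH1 and CLDN4, which mark well-differentiated epithelium, lay at or below 0.47, 1.48 and 0.46 FPKM. Of 5 detoxification genes known to be high in A549 none was called, and AKR1B10 led them at 1001 ± 56.1 FPKM in the control. Among alveolar type 2 markers, the surfactant gene SFTPC had at most 6 reads in a library and ABCA3 was the most abundant at a mean of 10.5 FPKM, whereas LAMP3, which interferon also raises, was lower (log2 fold change -2.91, adjusted p = 6.7e-05 by edgeR). Markers of leukocytes, fibroblasts and endothelium were at low levels, with PTPRC at 1 read in 1 of the 6 libraries and KDR at most 11 reads, and 1 of these markers was called, CD14, at 2.12 CPM in the control against 4.55 CPM. In such bulk RNA, fewer cells of a type and less RNA per cell cannot be told apart.

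All 10 genes were matched to GENCODE version 44 on GRCh38, the build of the deposited files. DDIT3 (ENSG00000175197) lies on chromosome 12 from 57516588 to 57521737 on the minus strand, and 355 of its 1307 exonic bases are shared with MARS1 on the opposite strand and 58 with MBD6. The library kit keeps strand, but no source used here says whether the counting used it, so reads of DDIT3 and MARS1 might not have been told apart. MARS1 had 214, 230 and 239 CPM in control replicates 1, 2 and 3 and 272, 270 and 267 CPM in TFAM-OE replicates 1, 2 and 3, and was not called (log2 fold change 0.24, adjusted p = 0.118 by edgeR). The part of shared reads in the values of DDIT3 was not tested. ATF5 (chromosome 19, 49928702 to 49933935, plus strand) shares 565 of its 2892 exonic bases with NUP62 and 75 with IL4I1, both on the opposite strand. No exonic overlap was found for the other 8 genes.

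Because ATF4, DDIT3 and ATF3 act through short DNA elements, the promoters of the genes were searched for 4 motifs on both strands, in the 18 RefSeq windows (GRCh38.p14) that the 10 genes have, each running from 250 bases before to 50 bases after a start of transcription. The motifs were TGATGNAA, a core of the C/EBP-ATF response element that ATF4 and DDIT3 bind with C/EBP partners, TGACGTCA, the cAMP response element, TGANTCA, the AP-1 element, and GAAANNGAA, a core of the interferon-stimulated response element. The first was found in 3 of the 18 windows, those of ATF3, CHAC1 and ASNS, and in 3.62% of 35116 windows of all genes. The cAMP response element was found in 1, that of PPP1R15A (1.85% of all windows), and the interferon-stimulated element in 1, that of ATF5 (8.11%). AP-1 was found in 3 windows (7.71% of all), 1 of ATF5 and both of DDIT3, whose windows are shifted by 3 bases and hold the same match. No base was part of matches to 2 different motifs. A match is a description of these letters only. The windows of the genes with a match that differ most in their behaviour below are shown 5′ to 3′ along the gene, with the matches in capitals. They lie at chr12:57520465-57520764 on the minus strand for DDIT3, chr1:212565157-212565456 on the plus strand for ATF3, chr19:48872171-48872470 on the plus strand for PPP1R15A, chr15:40953221-40953520 on the plus strand for CHAC1 and chr7:97872359-97872658 on the minus strand for ASNS.
DDIT3: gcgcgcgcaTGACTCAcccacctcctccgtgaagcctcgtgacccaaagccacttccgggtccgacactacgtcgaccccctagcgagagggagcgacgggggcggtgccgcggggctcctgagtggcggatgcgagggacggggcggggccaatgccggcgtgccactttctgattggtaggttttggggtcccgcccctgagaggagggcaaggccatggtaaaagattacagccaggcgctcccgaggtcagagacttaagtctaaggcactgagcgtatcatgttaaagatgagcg
ATF3: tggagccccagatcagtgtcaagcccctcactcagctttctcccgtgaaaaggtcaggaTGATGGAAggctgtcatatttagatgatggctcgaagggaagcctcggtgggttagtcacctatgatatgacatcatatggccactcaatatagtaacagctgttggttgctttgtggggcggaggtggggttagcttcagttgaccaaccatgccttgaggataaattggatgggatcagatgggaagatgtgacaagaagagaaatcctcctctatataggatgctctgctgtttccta
PPP1R15A: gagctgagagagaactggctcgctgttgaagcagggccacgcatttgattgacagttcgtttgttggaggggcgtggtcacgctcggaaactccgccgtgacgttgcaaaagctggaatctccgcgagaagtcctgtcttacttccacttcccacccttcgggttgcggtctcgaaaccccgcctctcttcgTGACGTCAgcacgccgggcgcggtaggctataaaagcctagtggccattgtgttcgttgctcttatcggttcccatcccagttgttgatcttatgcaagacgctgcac
CHAC1: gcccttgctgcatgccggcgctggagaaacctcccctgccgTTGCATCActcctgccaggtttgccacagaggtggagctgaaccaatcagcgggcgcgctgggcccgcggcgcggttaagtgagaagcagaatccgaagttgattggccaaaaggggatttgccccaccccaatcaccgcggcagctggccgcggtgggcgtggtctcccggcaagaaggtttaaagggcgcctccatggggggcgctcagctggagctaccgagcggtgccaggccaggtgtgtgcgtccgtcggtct
ASNS: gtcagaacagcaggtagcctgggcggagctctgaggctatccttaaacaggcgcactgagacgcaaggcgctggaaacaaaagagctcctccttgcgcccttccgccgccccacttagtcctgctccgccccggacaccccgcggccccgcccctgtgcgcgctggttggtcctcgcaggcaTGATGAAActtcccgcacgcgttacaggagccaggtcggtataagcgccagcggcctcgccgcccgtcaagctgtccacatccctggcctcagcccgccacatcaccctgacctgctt

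**Figure D1:**
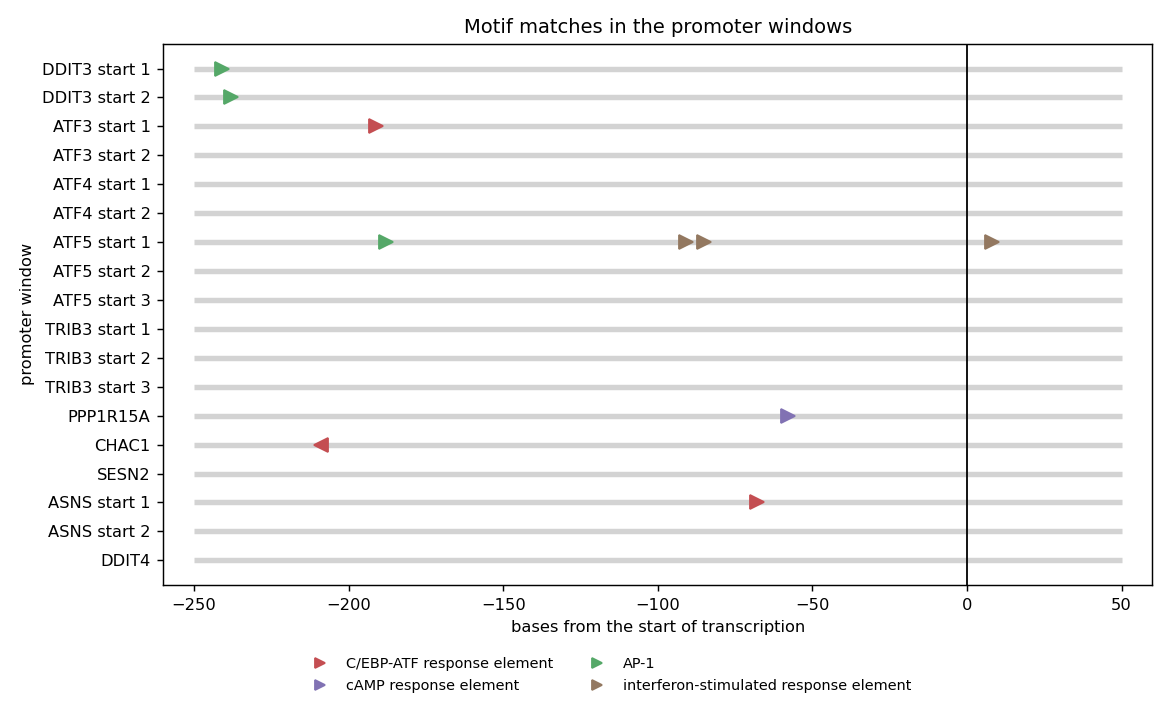
Positions of the 4 motifs in the 18 promoter windows, with the distance in bases from the start of transcription on the x axis and 1 line per window. Arrowheads mark the first base of a match and point along its strand (the palindromic cAMP and AP-1 elements are drawn to the right). The C/EBP-ATF element begins 68 bases before the start in ASNS, 191 in ATF3 and 209 in CHAC1. The windows of TRIB3, SESN2, DDIT4 and ATF4 hold no match, and bases outside the windows were not searched.

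Summed over the 10 genes, the level was 1695, 1505 and 1380 CPM in control replicates 1, 2 and 3 and 1235, 1180 and 1116 CPM in TFAM-OE replicates 1, 2 and 3, so that every library labelled TFAM-OE lay below every control library. Without PPP1R15A and ATF4, left out after their values were seen, the other 8 summed to 732, 686 and 612 CPM against 603, 620 and 624 CPM, with overlap between the groups. Of the 10 genes 7 had a negative log2 fold change. DDIT3, ATF3, PPP1R15A and SESN2 were called lower and ASNS was called higher, whereas ATF4, ATF5, TRIB3, CHAC1 and DDIT4 were not called. The 4 genes called lower at an adjusted p below 0.05 (edgeR's quasi-likelihood test, two-sided, adjusted by Benjamini-Hochberg over all genes) stand beside 796 of the 16555 genes tested, or 4.81%, and the 1 called higher beside 576 genes, or 3.48%. When the level had also to differ at least 2-fold, 3 members were lower, DDIT3, ATF3 and PPP1R15A, beside 2.07% of all genes, and 0 were higher, beside 0.447%. The median log2 fold change was -0.21 over the 10 genes and -0.01 over all genes tested, and the former was -0.12 without TFAM-OE replicate 3. Every library labelled TFAM-OE lay below every control library in 5 of the genes, against 15.8% of all genes, and above in 2, also against 15.8%. The same 4 lower and 1 higher genes were counted with RLE, upper-quartile and library size scaling.

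**Figure D2:**
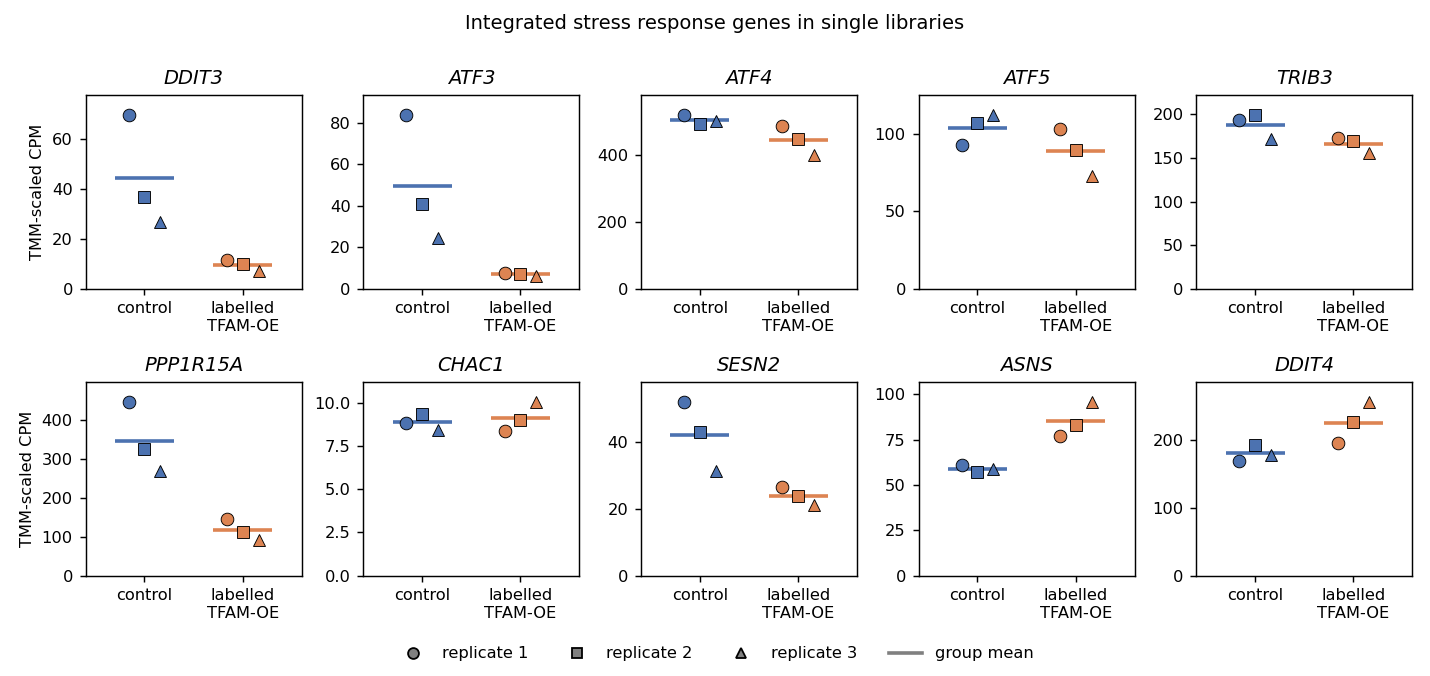
TMM-scaled CPM (y axes from 0, each with its own scale) of the 10 genes in each library, with control libraries in blue and libraries labelled TFAM-OE in orange, symbols for the replicate number and a line at the group mean. DDIT3, ATF3, PPP1R15A and SESN2 fall below the control range in all 3 libraries labelled TFAM-OE, and the control libraries of these genes spread widely, from 26.7 to 69.3 CPM for DDIT3.

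The control libraries were uneven in 4 of the genes, those called lower. The highest control value exceeded the lowest 2.59-fold for DDIT3, 3.45-fold for ATF3, 1.66-fold for PPP1R15A and 1.65-fold for SESN2, whereas this ratio was 1.21 for the median gene and 2.11 at the 95th percentile of all genes tested. In the other 6 it ran from 1.05 for ATF4 to 1.21 for ATF5. Control replicate 1 was the highest control library in 6 of the 10 genes, as it was in 37.3% of all genes tested. Each of the called genes is therefore also given without control replicate 1.

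Of the transcription factors, DDIT3 (also called CHOP), a C/EBP family protein linked to cell death under lasting stress, had 69.3 CPM in control replicate 1, 36.5 in replicate 2 and 26.7 in replicate 3, and 11.5, 9.66 and 7.20 CPM in TFAM-OE replicates 1, 2 and 3. All 3 libraries labelled TFAM-OE were low, with a ratio of highest to lowest of 1.59 against 1.30 for the median gene, and the lowest control library was still 2.34 times the highest of them. For DDIT3 the log2 fold change was -2.22 (standard error 0.32, adjusted p = 0.0037 by edgeR), a level 4.67-fold lower with a 95% interval from 2.85 to 7.67. Without control replicate 1 it was -1.73 (adjusted p = 0.0071 by edgeR). DDIT3 ranked 63 of 16555 genes from the lowest log2 fold change.

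ATF3, a stress-induced factor that represses many of the genes it binds, had the largest difference of the 10. Its values were 83.8, 41.1 and 24.3 CPM in control replicates 1, 2 and 3 and 7.53, 7.24 and 6.23 CPM in TFAM-OE replicates 1, 2 and 3. As for DDIT3, control replicate 1 was far above the other controls. The libraries labelled TFAM-OE differed by little, and the lowest control was 3.22 times the highest of these. The log2 fold change was -2.83 (standard error 0.38, adjusted p = 0.0028 by edgeR), the rank 30 from the lowest, and -2.21 without control replicate 1 (adjusted p = 0.0024 by edgeR). ATF3 and DDIT3 both fell, and the C/EBP-ATF letters printed above stand in the ATF3 window and not in that of DDIT3. Bases more than 250 before a start were not searched, so an element of DDIT3 further away would not have been seen.

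ATF4, the factor at the centre of the response, was the most abundant of the 10 in both groups, at 171 ± 8.76 FPKM in the control and 148 ± 6.67 FPKM in the libraries labelled TFAM-OE (SD, n = 3 each). In CPM it stood at 519, 494 and 501 in control replicates 1, 2 and 3 and at 487, 448 and 401 in TFAM-OE replicates 1, 2 and 3. The groups lay side by side with no overlap, but the lowest control was only 1.01 times the highest library labelled TFAM-OE. edgeR did not call the difference (log2 fold change -0.18, standard error 0.10, adjusted p = 0.292), and its 95% interval, from -0.40 to 0.04, allows a small decrease. For ATF4 the value was -0.10 without TFAM-OE replicate 3 and -0.25 without TFAM-OE replicate 1, not called in either fit. ATF5, a factor induced alongside ATF4 and tied to the mitochondrial stress response, had 92.7, 107 and 112 CPM in control replicates 1, 2 and 3 and 103, 89.3 and 72.8 CPM in TFAM-OE replicates 1, 2 and 3. Here control replicate 1 was the lowest control, the groups overlapped, and the log2 fold change was -0.23 (standard error 0.13, adjusted p = 0.318 by edgeR). For ATF5 this was -0.10 without TFAM-OE replicate 3 and -0.35 without TFAM-OE replicate 1, not called in either fit.

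Among the feedback regulators, PPP1R15A (GADD34) directs protein phosphatase 1 to eIF2 and so ends the block of protein synthesis. It had 444, 325 and 268 CPM in control replicates 1, 2 and 3 and 146, 113 and 90.6 CPM in TFAM-OE replicates 1, 2 and 3. Control replicate 1 was again the highest and the groups were clearly apart, with the lowest control 1.84 times the highest library labelled TFAM-OE. The log2 fold change was -1.57 (standard error 0.21, adjusted p = 0.0025 by edgeR), 2.97-fold lower with a 95% interval from 2.16 to 4.09, and -1.34 without control replicate 1 (adjusted p = 0.013 by edgeR). PPP1R15B, the constitutive counterpart of PPP1R15A, had 78.0, 67.6 and 66.4 CPM in the control and 47.97, 58.0 and 73.0 CPM in replicates 1, 2 and 3 labelled TFAM-OE, overlapping groups that edgeR did not separate (log2 fold change -0.24, adjusted p = 0.334). PPP1R15B was called lower without TFAM-OE replicate 3, at -0.41 (adjusted p = 0.027 by edgeR), and stood at -0.16 without control replicate 1 and -0.11 without TFAM-OE replicate 1. Per read of PPP1R15B, PPP1R15A gave 5.70, 4.81 and 4.04 reads in the controls, whereas it gave 3.04, 1.94 and 1.24 in the others. TRIB3, a pseudokinase induced by ATF4 and DDIT3 that in turn restrains ATF4, was not called. It stood at 194, 199 and 172 CPM in control replicates 1, 2 and 3 and at 173, 170 and 155 CPM in TFAM-OE replicates 1, 2 and 3, where control replicate 3 lay just under the highest library labelled TFAM-OE. For TRIB3 the log2 fold change was -0.18 (standard error 0.097, adjusted p = 0.271 by edgeR).

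**Figure D3:**
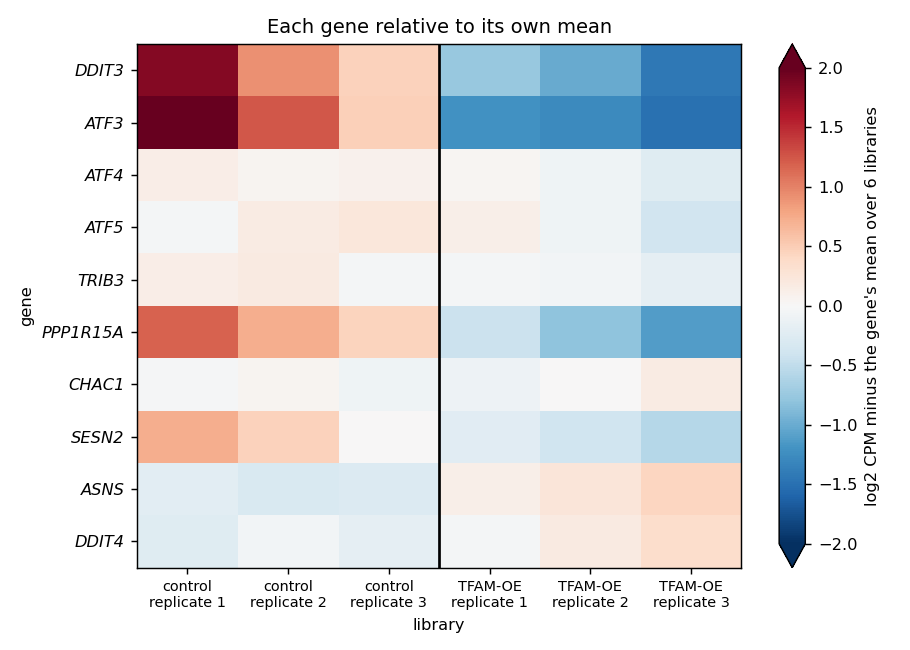
Heat map of the 10 genes (y axis) in the 6 libraries (x axis), coloured by log2 CPM minus the gene's mean over the 6 libraries, red above and blue below the mean. DDIT3, ATF3, PPP1R15A and SESN2 run from red in control replicate 1 to blue in the libraries labelled TFAM-OE, while ATF4, ATF5, TRIB3 and CHAC1 stay pale and ASNS and DDIT4 are shifted the other way.

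The effectors split in direction. SESN2, which restrains mTORC1 signalling when leucine is short, was called lower. Its values were 52.0, 43.1 and 31.4 CPM in control replicates 1, 2 and 3 and 26.7, 23.8 and 21.2 CPM in TFAM-OE replicates 1, 2 and 3, so that the lowest control was 1.18 times the highest library labelled TFAM-OE. The log2 fold change was -0.82 (standard error 0.18, adjusted p = 0.022 by edgeR). The call of SESN2 was lost in 3 fits with a library left out, where the adjusted p in the same test was 0.112 without control replicate 1, 0.102 without control replicate 2 and 0.098 without TFAM-OE replicate 2, with log2 fold changes of -0.63, -0.80 and -0.82. In these fits the number of all genes called lower also fell, from 796 to 252, 240 and 262.

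ASNS, asparagine synthetase and a standard reporter of ATF4 activity, was the only one of the 10 called higher. It had 61.1, 57.0 and 58.5 CPM in control replicates 1, 2 and 3, an even level, and 77.1, 83.2 and 95.5 CPM in TFAM-OE replicates 1, 2 and 3. The lowest library labelled TFAM-OE was 1.26 times the highest control. The log2 fold change was 0.53 (standard error 0.11, adjusted p = 0.016 by edgeR), 1.45-fold higher with a 95% interval from 1.23 to 1.70. This call too was lost without control replicate 1, control replicate 2 or TFAM-OE replicate 2 (log2 fold changes 0.57, 0.52 and 0.55, adjusted p = 0.065, 0.094 and 0.082 by edgeR). With replicate numbers as a block its adjusted p was 0.091 by edgeR.

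DDIT4 (REDD1), another brake on mTORC1, had 170, 193 and 178 CPM in control replicates 1, 2 and 3 and 196, 227 and 256 CPM in TFAM-OE replicates 1, 2 and 3. All libraries labelled TFAM-OE were higher in CPM, by a factor of 1.01 at the nearest pair, but in FPKM the groups overlapped, with the highest control at 93.9 and the lowest library labelled TFAM-OE at 89.7. The difference (log2 fold change 0.33, standard error 0.11, adjusted p = 0.109 by edgeR) was not called with all libraries and was called without TFAM-OE replicate 1, at 0.42 (adjusted p = 0.025). CHAC1, which degrades glutathione and is a sensitive target of ATF4, was the least abundant of the 10 in the control, at 3.68 ± 0.232 FPKM (SD, n = 3). Its values of 8.81, 9.38 and 8.43 CPM in the control and 8.377, 8.996 and 10.03 CPM in the libraries labelled TFAM-OE overlapped, and the log2 fold change of 0.04 had a 95% interval from -0.25 to 0.34 (adjusted p = 0.875 by edgeR). CHAC1 and ASNS both carry the C/EBP-ATF letters shown above.

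**Figure D4:**
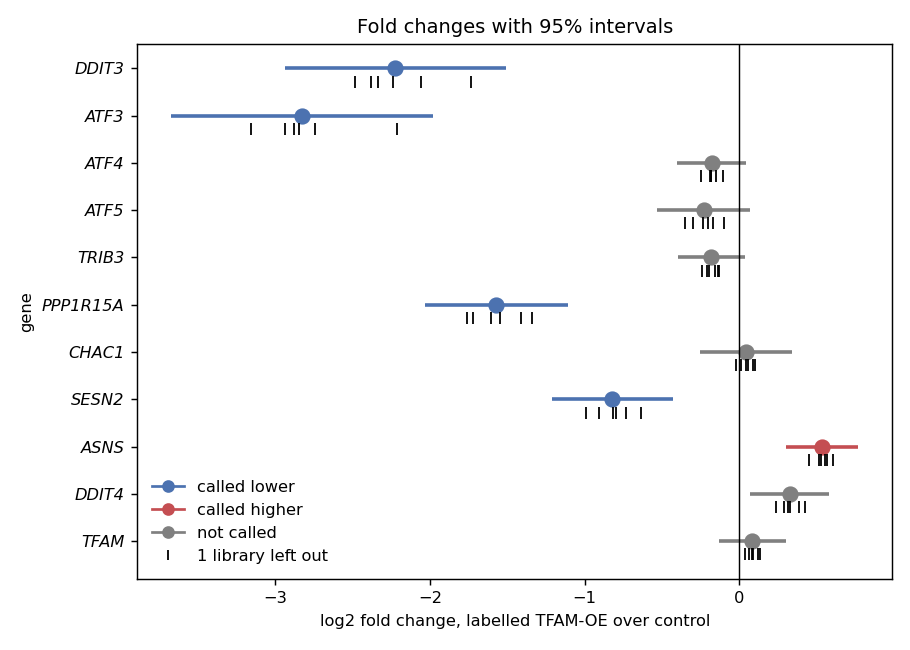
Log2 fold changes (x axis, libraries labelled TFAM-OE over control) of the 10 genes and TFAM, with 95% intervals from the edgeR fit as bars and the values with each library left out as ticks under them. DDIT3, ATF3 and PPP1R15A lie left of -1 also at the tick nearest to 0, which is -1.34 for PPP1R15A, -1.73 for DDIT3 and -2.21 for ATF3.

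The changes reordered the levels of the 10 genes, compared per length in FPKM. In the control the order of the group means was ATF4, PPP1R15A, DDIT4, TRIB3, ATF5, DDIT3, ASNS, ATF3, SESN2 and CHAC1. From ATF5 to SESN2 each gene's control libraries overlapped those of the next, while the others were apart from their neighbours. In the libraries labelled TFAM-OE the order was ATF4, DDIT4, TRIB3, PPP1R15A, ASNS, ATF5, DDIT3, SESN2, CHAC1 and ATF3, with overlap between TRIB3 and PPP1R15A, PPP1R15A and ASNS, ASNS and ATF5, and DDIT3 and SESN2. PPP1R15A thus passed from the second to the fourth place, at 125 ± 36.0 against 40.8 ± 7.69 FPKM, and ATF3 from above CHAC1 to below it, at 16.9 ± 10.9 against 2.31 ± 0.113 FPKM (SD, n = 3 each).

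Ratios within a library do not depend on the scaling between libraries. Per 100 reads of ATF4, DDIT3 had 13.3, 7.39 and 5.34 reads in control replicates 1, 2 and 3 and 2.35, 2.16 and 1.79 reads in TFAM-OE replicates 1, 2 and 3. ASNS had 11.8, 11.5 and 11.7 reads per 100 of ATF4 in the control libraries and 15.8, 18.6 and 23.8 in the others. The ratio of DDIT3 to ATF4 was thus lower, and that of ASNS to ATF4 higher, in all libraries labelled TFAM-OE than in any control. For TRIB3 the same ratio ran from 34.4 to 40.3 in the control and from 35.5 to 38.7 in the libraries labelled TFAM-OE. On the log2 scale the ratio to ATF4 differed by -1.95 for DDIT3 and by 0.71 for ASNS (exact permutation p = 0.1 for each, two-sided, the smallest that 3 libraries against 3 allow).

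The genes whose profile over the 6 libraries was most like that of DDIT3 were sought among 10954 other genes with a mean of at least 5 CPM, by the root mean square difference of log2(CPM + 0.5) centred on each gene's mean. The nearest 6 were DHRS2, a dehydrogenase, NR1D1, a repressor of the circadian clock, IFITM10, HLA-B, an antigen-presenting protein, HDAC9, a histone deacetylase, and ATF3, with differences from 0.172 for DHRS2 to 0.295 for ATF3. HLA-B has near-identical relatives, so its count is uncertain. PPP1R15A ranked 9 and SESN2 141, whereas ATF4 ranked 2098, CHAC1 5990 and ASNS 10485. NR1D1, with 103, 61.9 and 43.9 CPM in control replicates 1, 2 and 3 and 20.5, 17.4 and 16.5 CPM in TFAM-OE replicates 1, 2 and 3, shared with DDIT3 both the high control replicate 1 and the low libraries labelled TFAM-OE. The likeness includes the difference between the groups and is a description.

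Upstream of the 10 genes act the 4 kinases of eIF2. EIF2AK2 (PKR), which senses double-stranded RNA and is itself raised by interferon, had 194, 221 and 195 CPM in control replicates 1, 2 and 3 and 85.9, 101 and 106 CPM in TFAM-OE replicates 1, 2 and 3. Its groups were far apart, control replicate 1 was not high, and the log2 fold change was -1.06 (standard error 0.11, adjusted p = 5.0e-04 by edgeR). EIF2AK3 (PERK), the sensor of unfolded protein, EIF2AK4 (GCN2), the sensor of uncharged tRNA, and EIF2AK1 (HRI), which responds to heme shortage and to mitochondrial stress relayed by OMA1 and DELE1, were not called by edgeR (log2 fold changes -0.32, -0.16 and 0.30, adjusted p = 0.345, 0.526 and 0.114). Over the fits with a library left out, EIF2AK3 ran from -0.48 to -0.15 and EIF2AK4 from -0.33 to -0.03, without a call. A list of 21 genes held the eIF2 kinases, proteins that regulate them or relay stress to them, eIF2, and its exchange factor and phosphatase. Of these 21 genes, 2 were lower and 0 higher, beside 4.81% and 3.48% of all genes tested, with a median of -0.02. The lower of the 21 were EIF2AK2 and IMPACT, an inhibitor of EIF2AK4 activation (-0.45, adjusted p = 0.049 by edgeR). With a library left out, between 1 and 4 of the 21 were lower and EIF2AK2 was called each time, while IMPACT was called only without TFAM-OE replicate 3, the fit in which 2 genes of the list were higher. These fits called between 240 and 1786 of all genes lower, and the one without TFAM-OE replicate 3 called 1428 higher. PPP1CA was the most abundant of the list at a mean of 141 FPKM.

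Downstream stand the amino acid genes that ATF4 is known to control. Of 20 genes of amino acid synthesis and transport, 6 were higher and 1 was lower, beside 3.48% and 4.81% of all genes tested. The higher were CBS, SHMT2, GPT2, PHGDH, PYCR1 and PSAT1, the lower was SLC3A2, and the list's median log2 fold change was 0.29. This median was 0.18 without control replicate 3, 0.17 without TFAM-OE replicate 3 and 0.13 by limma-trend on FPKM with a pseudocount of 1. SHMT2, which makes glycine and one-carbon units in mitochondria, had 109, 146 and 164 CPM in control replicates 1, 2 and 3 and 266, 257 and 238 CPM in TFAM-OE replicates 1, 2 and 3, with no overlap (log2 fold change 0.86, adjusted p = 0.0068 by edgeR). CBS, of cysteine synthesis, and GPT2, a mitochondrial alanine transaminase, were higher by log2 0.96 and 0.56 (adjusted p = 0.044 and 0.020 by edgeR), and SLC3A2, the shared heavy chain of amino acid transporters, changed by -0.49 (adjusted p = 0.045). SLC7A5, its light chain partner, was the most abundant of the list, at 381 ± 11.7 FPKM in the control and 384 ± 11.8 FPKM in the libraries labelled TFAM-OE (SD, n = 3 each). The number higher was 2 without control replicate 1, control replicate 2 or TFAM-OE replicate 2, and SHMT2 was called each time, while CBS, GPT2 and SLC3A2 were not called without any of these 3, and 3 were lower without TFAM-OE replicate 3. Among all genes, the number higher without these 3 libraries was 90, 66 and 89 in that order, and 1786 were lower without TFAM-OE replicate 3. Of 12 tRNA synthetase genes that respond to ATF4, 0 were called lower and 0 higher by edgeR, beside 4.81% and 3.48% of all genes, with a median of 0.03. DESeq2 called 0 of the 12 as well. AARS1 was the most abundant of these, at 73.5 ± 6.01 FPKM in the control and 73.2 ± 8.17 FPKM in the libraries labelled TFAM-OE (SD, n = 3 each).

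Of 20 other targets of ATF4 and DDIT3 tested, 6 were lower and 0 higher, beside 4.81% and 3.48% of all genes, with a median log2 fold change of -0.20. Control replicate 1 was the highest control in 16 of the 20, and the median was -0.09 without it and -0.13 without TFAM-OE replicate 1. PMAIP1 (NOXA), which promotes cell death, had 69.7, 45.9 and 42.8 CPM in control replicates 1, 2 and 3 and 29.4, 26.9 and 25.6 CPM in TFAM-OE replicates 1, 2 and 3, high in control replicate 1 like DDIT3 (log2 fold change -0.95, adjusted p = 0.012 by edgeR). STC2, a secreted glycoprotein, and BBC3 (PUMA), another cell death gene, changed by -0.93 and -0.70 (adjusted p = 0.0033 and 0.017 by edgeR), and SQSTM1, an autophagy receptor and the most abundant of the list, by -0.53 (adjusted p = 0.046). The other lower genes were GDF15 and LURAP1L. Without control replicate 1, control replicate 2 or TFAM-OE replicate 2 the number lower was 2, 2 and 1 in that order, and 4 without control replicate 3, and 1 was higher without TFAM-OE replicate 3. STC2 was called in each case, PMAIP1 was not without TFAM-OE replicate 2, BBC3 not without any of the first 3, and SQSTM1 not without any of the 4. The same 4 fits called 252, 240, 262 and 748 of all genes lower, and 1428 were higher without TFAM-OE replicate 3.

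The other arms of the unfolded protein response were counted in the same way. Of 18 genes of the XBP1 and ATF6 arms, 1 was lower and 0 higher, beside 4.81% and 3.48% of all genes tested, with a median of 0.02. The lower gene was DNAJB9, a chaperone of the endoplasmic reticulum (log2 fold change -0.62, adjusted p = 0.047 by edgeR). The DNAJB9 call was lost without control replicate 1, control replicate 2 or TFAM-OE replicate 2. Of the 18 genes, 4 were lower and 1 higher without TFAM-OE replicate 3, a fit that called 1786 of 16941 genes lower and 1428 higher. CALR, the most abundant, had 287 ± 9.31 FPKM in the control and 334 ± 13.2 FPKM in the libraries labelled TFAM-OE (SD, n = 3 each). Control replicate 1 was the highest control in 13 of the 18, and whether this list differs from the 10 genes was not tested.

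**Figure D5:**
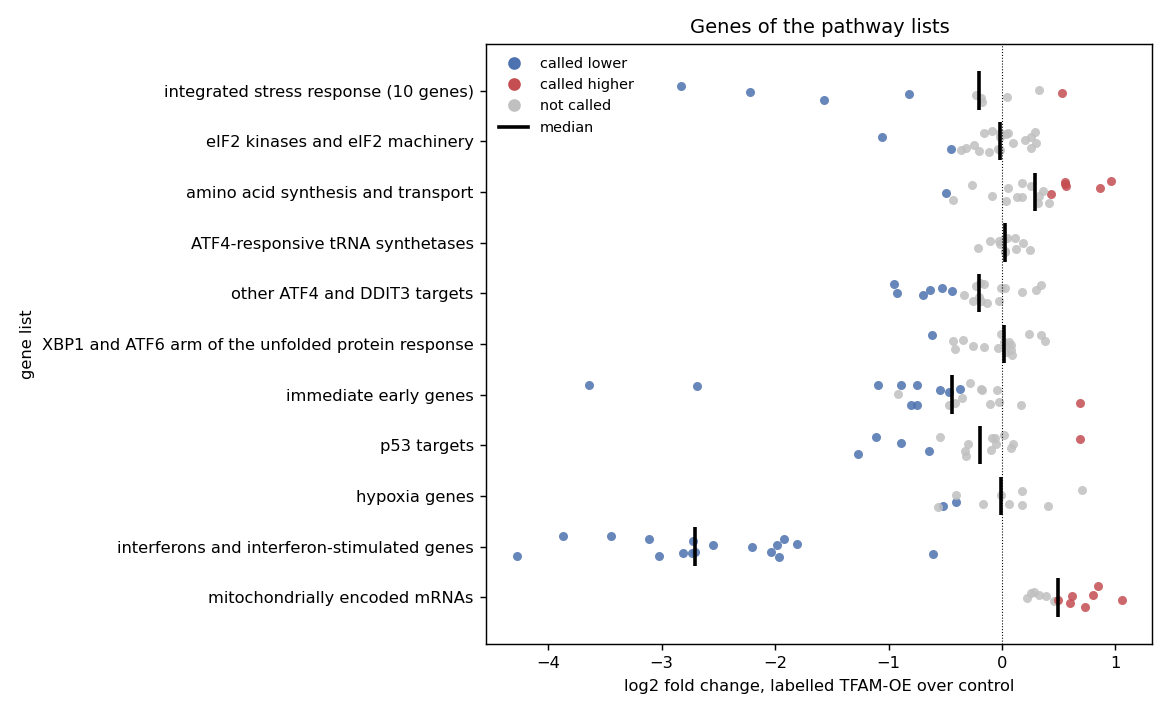
Log2 fold changes (x axis, libraries labelled TFAM-OE over control) of every tested gene of the 10 genes and of the pathway lists (y axis), with genes called lower in blue, called higher in red and others in grey, and a black bar at each list's median. The median is -0.21 for the 10 genes, -2.71 for interferons and interferon-stimulated genes and 0.49 for mitochondrially encoded mRNAs.

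ATF3 and PPP1R15A are also induced outside the integrated stress response, by growth factor and DNA damage signalling, and genes of these programmes were counted too. Of 22 immediate early genes tested, 10 were lower, 1 higher and 11 not called, with a median of -0.44, beside 4.81% lower and 3.48% higher over all genes. EGR1, a serum-induced factor, had 30.7, 11.2 and 5.16 CPM in control replicates 1, 2 and 3 and 1.35, 1.18 and 1.23 CPM in TFAM-OE replicates 1, 2 and 3 (log2 fold change -3.64, adjusted p = 0.0061 by edgeR). Its controls varied in the same order as those of DDIT3 and ATF3, with control replicate 1 at 3.74 times the mean of the other controls, against 2.19 times for DDIT3 and 2.56 times for ATF3. FOSB and KLF4 changed by -2.69 and -1.09 (adjusted p = 0.022 and 0.0092), KLF2 by 0.69 (adjusted p = 0.041 by edgeR), and IER3, the most abundant, had 176 ± 9.33 against 142 ± 3.80 FPKM (SD, n = 3 each). The number of immediate early genes called lower was 5 without control replicate 1 and 2 without control replicate 2 or TFAM-OE replicate 2. In these fits 252, 240 and 262 of all genes were lower. FOSB and KLF4 were not called without control replicate 2 or TFAM-OE replicate 2, KLF2 was not called without these or control replicate 1, and EGR1 was called each time. Without control replicate 1 the log2 fold change was -2.69 for EGR1 and -1.69 for FOSB (adjusted p = 0.0061 and 0.038 by edgeR). Of 16 p53 targets, 4 were lower and 1 higher, beside 4.81% and 3.48% of all genes, with a median of -0.20. Among the lower were GADD45A, MDM2 and FAS at -1.27, -1.11 and -0.89 (adjusted p = 0.0055, 0.012 and 0.0038 by edgeR). The higher p53 target was FDXR, at 0.69 (adjusted p = 0.018 by edgeR). Without control replicate 1 or 2 the number lower was 2, MDM2 being lost in both and FDXR in both and without TFAM-OE replicate 2. BAX led this list in abundance at a mean of 165 FPKM. Hypoxia is a known inducer of DDIT4. Of 11 hypoxia genes 2 were lower and 0 higher, beside 4.81% and 3.48% of all genes, and the median was -0.01. The lower hypoxia genes were ADM and SLC2A1, at -0.52 and -0.41 (adjusted p = 0.035 and 0.049 by edgeR). LDHA was the most abundant of the 11 at a mean of 659 FPKM. The number lower was 0 without control replicate 1, control replicate 2 or TFAM-OE replicate 2 and 4 without TFAM-OE replicate 3, and the number higher was 2 without TFAM-OE replicate 1. Counted over all genes, 1786 were lower without TFAM-OE replicate 3 and 753 higher without TFAM-OE replicate 1. The part of these programmes in the lower DDIT3, ATF3, PPP1R15A and SESN2, or in the other lower targets of ATF4 and DDIT3, was not tested.

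Interferon genes also differed between the groups. All 17 interferons and interferon-stimulated genes tested were called lower, beside 4.81% of all genes, with a median of -2.71. This list was written with earlier results of these data known, so the count is a description. With a library left out between 15 and 17 were lower, beside between 240 and 1786 of all genes. The summed level of the 17 was 3602, 4005 and 3830 CPM in control replicates 1, 2 and 3 and 969, 758 and 629 CPM in TFAM-OE replicates 1, 2 and 3. Control replicate 1 was the highest control in 4 of the 17, against 6 of the 10 stress response genes. IFNB1, IFNL1 and OAS2 had the lowest log2 fold changes, -4.28, -3.87 and -3.45 (adjusted p = 7.2e-05, 4.4e-05 and 1.8e-05 by edgeR), and ISG15 was the most abundant at a mean of 360 FPKM. The 13 mitochondrially encoded mRNAs, whose transcription TFAM serves, had log2 fold changes of the other sign, and 6 of them were not called. All 13 were above every control library in every library labelled TFAM-OE, against 15.8% of all genes. Of the 13, 7 were called higher and 0 lower, beside 3.48% and 4.81% of all genes, and the median was 0.49. MT-CO3, MT-ATP8 and MT-ATP6 were higher by log2 1.06, 0.85 and 0.81 (adjusted p = 0.0021, 0.0029 and 0.0034 by edgeR), and MT-CO2 was the most abundant at a mean of 4748 FPKM. The summed level of the 13 mRNAs was 20609, 20799 and 22487 CPM in the control libraries and 32551, 28074 and 29332 CPM in the libraries labelled TFAM-OE, and 3 were called without control replicate 2. That fit called 66 of 16859 genes higher. Whether the lower interferon genes or the higher mitochondrial mRNAs had a part in the values of DDIT3, ATF3, PPP1R15A, SESN2 or ASNS was not tested.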

How the data were processed

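Libraries of polyadenylated RNA from A549 cells were grouped by their labels, 3 control and 3 TFAM-OE. P-values measure only the spread between these samples. After trimming, the authors mapped the libraries with TopHat2 (GRCh38) and deposited a read count and an FPKM value per gene and library (bcl2fastq and edgeR are also named in their notes). The sources used here do not name the counting program, annotation or strand setting, and the reads carry no molecular identifiers.

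The deposited counts were tested in R (4.3.3) with edgeR (4.0.16), by filterByExpr, TMM scaling and the quasi-likelihood test, two-sided, with Benjamini-Hochberg adjustment over 16555 genes. Log2 fold changes are TFAM-OE over control. The procedure was tested on simulated data of 16555 genes. It recovered 28.4% of 67 genes changed 1.5-fold, 71.6% of 67 changed 2-fold and 92.4% of 66 changed 4-fold. Of its calls 2.29% were false. FPKM, as deposited by the authors, served to compare levels between genes.

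The 10 members and the gene lists were chosen with earlier results of these data known. Named genes are the members, TFAM, the 4 eIF2 kinases, PPP1R15B, in each list up to 3 called genes per direction with the largest change and at least 1 CPM in the higher group, the most abundant gene of each list by FPKM, and the 6 profiles nearest to DDIT3. MARS1, MBD6, NUP62 and IL4I1 were named because they overlap members. PHGDH, PYCR1, PSAT1, GDF15, LURAP1L, EPCAM, CDH1, CLDN4, SFTPC and PTPRC were named after their values were seen. Motifs were searched on both strands of RefSeq promoters, and positions come from GENCODE 44. Alternatives were DESeq2 (1.42.0), limma-voom and limma-trend (limma 3.58.1), edgeR's exact test, a robust fit, other scalings, filters, pseudocounts of 0.1 and 1 on FPKM, each library left out, a replicate block and stricter thresholds. Figures were drawn in Python (3.11.15) with numpy (2.4.6) and matplotlib (3.10.9).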

Additional observations from a re-analysis of the deposited data

How the results depend on the processing

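Of 231 values of the members and TFAM under the alternatives, 218 kept both direction and call, 11 lost the call, 1 gained it and 1 was reversed, whatever the size of the change. The reversed value was CHAC1 without TFAM-OE replicate 3, at -0.022, against 0.10 without TFAM-OE replicate 1. DDIT3, ATF3 and PPP1R15A were called in every fit. Of 839 values of other named genes 727 kept direction and call, 111 lost the call and 1 gained it. Sizes moved more, as with a pseudocount of 1 on FPKM, where EGR1 was at -1.76, LAMP3 at -1.08 and HDAC9 at -0.58. Over all alternatives the values nearest to 0 were -0.58 for FOSB and -2.15 for IFNB1.

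The 796 genes called lower became 1485 with no filter beyond 1 read, 1236 with edgeR's exact test, 285 with a replicate block, 342 with 2-fold required, 249 at an adjusted p below 0.01, and 252, 240, 748, 1001, 262 and 1786 without control replicates 1, 2 and 3 and TFAM-OE replicates 1, 2 and 3. The 576 called higher became 1034 with no filter, 934 with DESeq2, 980 with the exact test, 74 with the block, 74 with 2-fold required, 87 at an adjusted p below 0.01, and 90, 66, 482, 753, 89 and 1428 in the same order of left-out libraries. At the fold threshold the 342 lower became 528 with no filter, 217 with the block, 108 by limma-trend with a pseudocount of 1, 205 with FPKM above 1, and 183 to 448 with a library left out. The 74 higher became 129 with no filter, 38 with the block, 44 and 11 by limma-trend with pseudocounts of 0.1 and 1, 31 with FPKM above 1, and 21 to 113 with a library left out. Members called higher, 1, became 0 with the block, with 2-fold required, at an adjusted p below 0.01, and without control replicate 1, control replicate 2 or TFAM-OE replicate 2, and 2 without TFAM-OE replicate 1.

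Lower genes made up 58.0% of calls, 56.4% with RLE or upper-quartile scaling, 58.6% with library size alone, 54.2% by DESeq2, 50.4% by limma-trend with FPKM above 1 and 79.4% with the block. The share was 73.7%, 78.4% and 74.6% without control replicate 1, control replicate 2 and TFAM-OE replicate 2. The main fit did not take the replicate numbers as pairs, because they are not stated to mark a shared culture day. Same-number correlations of the deviations from group means across 10955 genes were -0.448, 0.145 and -0.524. Deviations from a mean of 3 libraries are tied to each other, so these values cannot decide the pairing. Control replicate 1 with TFAM-OE replicate 3 gave 0.495 and control replicate 3 with TFAM-OE replicate 1 gave 0.504, and no pairing was fitted on these.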
